A study of Homo sapiens with 41 samples.

Results

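The genes described here are the nuclear genes for subunits of the oxidative phosphorylation machinery. They were chosen by symbol from the protein-coding genes of the GENCODE annotation on hg19: symbols that begin with NDUFA, NDUFB, NDUFC, NDUFS or NDUFV for complex I, SDHA to SDHD for complex II, UQCR for complex III, COX4 to COX8 with a suffix for complex IV, and ATP5F or ATP5M for the ATP synthase. The assembly factors whose symbols begin with NDUFAF were left out. The rule found 85 of 20136 nuclear protein-coding genes, of which 40 belong to complex I, 4 to complex II, 9 to complex III, 17 to complex IV and 15 to the ATP synthase. NDUFA4 was counted under complex I because of its symbol, although its product is now placed in complex IV. Of the 85 genes, 2 are readthrough genes, which join a subunit gene to the next gene: ATP5MF-PTCD1 and NDUFC2-KCTD14.

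The study asked where Elongin A, a subunit of an RNA polymerase II (RNAPII) elongation factor that also serves in a ubiquitin ligase, sits on chromatin. Its occupancy was mapped in DLD1 cells, a human colon cancer cell line, that carried no siRNA and were fixed with formaldehyde. In CUT&RUN an antibody brings a nuclease to the protein and the released fragments are sequenced. A goat antibody to Elongin A was used in 2 samples with 1 goat IgG control, a mouse antibody in 1 sample with 1 mouse IgG control, and ChIP-seq was done in 1 sample with 1 input control. Each of these 3 experiments gave 1 deposited list of peaks, and the 2 goat antibody samples have no lists of their own. No value below therefore has a replicate error, no difference was tested, and the antibodies cannot be told apart from the samples in which they were used. A single cell line limits every value to these cells.

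The respiratory chain passes electrons from NADH through complex I, or from succinate through complex II, to ubiquinone, on through complex III to cytochrome c, and through complex IV to oxygen. Complexes I, III and IV pump protons, and the ATP synthase uses the gradient to make ATP. Most subunits are encoded in the nucleus and a few in mitochondrial DNA, and the nuclear genes, which lie scattered over the chromosomes, are transcribed by RNAPII. NRF1, the ETS factor GABP and YY1 are known to bind many of their promoters.

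The lists hold 8720 goat antibody peaks, 2338 mouse antibody peaks and 186 ChIP-seq peaks, with median fold enrichments over the control of 4.32, 4.36 and 9.99. Read totals are not part of the lists, so the depth is unknown, and a gene without a peak is a gene at which none was called. Of 8 colon epithelial marker genes, EPCAM, KRT8, KRT18 and CDX2 had goat antibody peaks and KRT20, CDX1, VIL1 and CDH17 had none. The mouse antibody had 3 peaks at KRT8, 1 at CDX2 and none at the others. Of markers of other cell types, the blood gene PTPRC had 2 goat and 2 mouse antibody peaks, and ALB and COL1A1 had none.

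The stretches below are the DNA in which Elongin A summits lay just upstream of an annotated start of oxidative phosphorylation genes. They are shown because they allow the peak to be read against the promoter letters. They belong to the 5 genes with the strongest goat antibody promoter peak for which the summit falls within 300 bp upstream of an annotated start and no exon of a coding gene intervenes. Each is written 5′ to 3′ on the strand of the gene from GRCh37, and ends at the base before the start. That start is the canonical one for COX5B and another annotated start for UQCRC2, COX7A2, NDUFA5 and ATP5MC1. Capitals mark exact matches, on either strand, to GCATGCGC (the core of the NRF1 motif), CCGGAAGT (an ETS core) or AAGATGGCG (a YY1 core). COX5B lies at chr2:98262225-98262524 on the plus strand, UQCRC2 at chr16:21964309-21964608 on the plus strand, COX7A2 at chr6:75953726-75954025 on the minus strand, NDUFA5 at chr7:123197959-123198258 on the minus strand and ATP5MC1 at chr17:46969827-46970126 on the plus strand.
COX5B: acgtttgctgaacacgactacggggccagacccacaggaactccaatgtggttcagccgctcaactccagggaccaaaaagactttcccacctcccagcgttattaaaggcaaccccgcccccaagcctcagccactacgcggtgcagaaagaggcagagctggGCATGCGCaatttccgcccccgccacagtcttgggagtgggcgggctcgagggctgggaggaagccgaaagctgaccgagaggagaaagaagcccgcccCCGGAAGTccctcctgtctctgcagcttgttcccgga
UQCRC2: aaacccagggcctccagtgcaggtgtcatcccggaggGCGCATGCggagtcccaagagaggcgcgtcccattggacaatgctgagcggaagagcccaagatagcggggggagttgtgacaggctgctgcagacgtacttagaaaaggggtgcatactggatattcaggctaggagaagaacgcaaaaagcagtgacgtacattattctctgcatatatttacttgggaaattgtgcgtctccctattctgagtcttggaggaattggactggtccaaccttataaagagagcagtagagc
COX7A2: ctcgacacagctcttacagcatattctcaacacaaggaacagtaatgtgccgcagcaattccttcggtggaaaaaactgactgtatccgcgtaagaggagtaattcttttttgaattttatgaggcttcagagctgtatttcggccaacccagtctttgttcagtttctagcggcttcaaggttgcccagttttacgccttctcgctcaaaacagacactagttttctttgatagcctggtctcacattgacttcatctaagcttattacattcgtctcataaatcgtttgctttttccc
NDUFA5: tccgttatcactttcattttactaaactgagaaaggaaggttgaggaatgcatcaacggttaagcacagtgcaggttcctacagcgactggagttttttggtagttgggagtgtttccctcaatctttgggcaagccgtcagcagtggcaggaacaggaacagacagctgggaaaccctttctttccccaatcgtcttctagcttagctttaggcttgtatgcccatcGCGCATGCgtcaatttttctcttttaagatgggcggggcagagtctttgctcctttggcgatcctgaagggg
ATP5MC1: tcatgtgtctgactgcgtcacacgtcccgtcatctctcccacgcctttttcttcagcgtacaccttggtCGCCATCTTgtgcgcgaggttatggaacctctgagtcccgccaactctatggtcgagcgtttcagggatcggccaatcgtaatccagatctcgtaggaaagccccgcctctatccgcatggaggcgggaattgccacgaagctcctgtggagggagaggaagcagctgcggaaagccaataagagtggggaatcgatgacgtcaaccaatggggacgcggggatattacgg
In COX5B, the summit lay 292 bp upstream of the start, an NRF1 match began at position -136 and an ETS match at -37, counted from the start. The UQCRC2 summit lay 137 bp upstream of the start used here, and its NRF1 match on the other strand began at -263. In NDUFA5 the summit was 202 bp upstream and an NRF1 match on the other strand began at -72. In ATP5MC1 the summit was 184 bp upstream and a YY1 match on the other strand began at -231. The COX7A2 stretch, with its summit 267 bp upstream, holds none of the 3 motifs. That summit lies inside the annotated gene, in an intron of another COX7A2 transcript. In none of the 5 stretches did the summit fall on a match, and a match is a run of letters and no evidence of binding.

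Elongin A peaks were called at a minority of these genes. A peak of any list lay in the gene or within 1 kb of it at 22 of 85 genes (25.9%, Wilson 95% interval 17.8 to 36.1), beside 25.2% of all 20136 nuclear protein-coding genes. The goat antibody had a peak at 19 genes (22.4%, 14.8 to 32.3), and the background share was 21.7%. The mouse antibody had a peak at 4 genes (4.71%, 1.85 to 11.5) against a background of 7.80%. ChIP-seq had a peak at 1 gene (1.18%, 0.208 to 6.37) against 0.785%. Each interval includes its background, and a share that near to it is not a result about the oxidative phosphorylation genes. The intervals cover counting error over genes only, since genes are not replicates of a condition.

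Promoter occupancy gave a like picture. A goat antibody summit lay between 1000 bp upstream and 100 bp downstream of an annotated start at 11 of 85 genes (12.9%, 7.38 to 21.7), beside 9.0% of all coding genes. Peaks of both antibodies were found at 2 genes, NDUFA11 and SDHD (2.35%, 0.648 to 8.18), beside 4.75%. Complex III had the highest goat antibody share, with 4 of 9 genes (44.4%, 18.9 to 73.3), and complex IV the lowest, with 2 of 17 (11.8%, 3.29 to 34.3). Complex I had 9 of 40 (22.5%, 12.3 to 37.5), complex II 1 of 4 and the ATP synthase 3 of 15 (20%, 7.05 to 45.2). All of these intervals overlap one another and include the background, so no order of the complexes can be read from them.

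**Figure D1:**
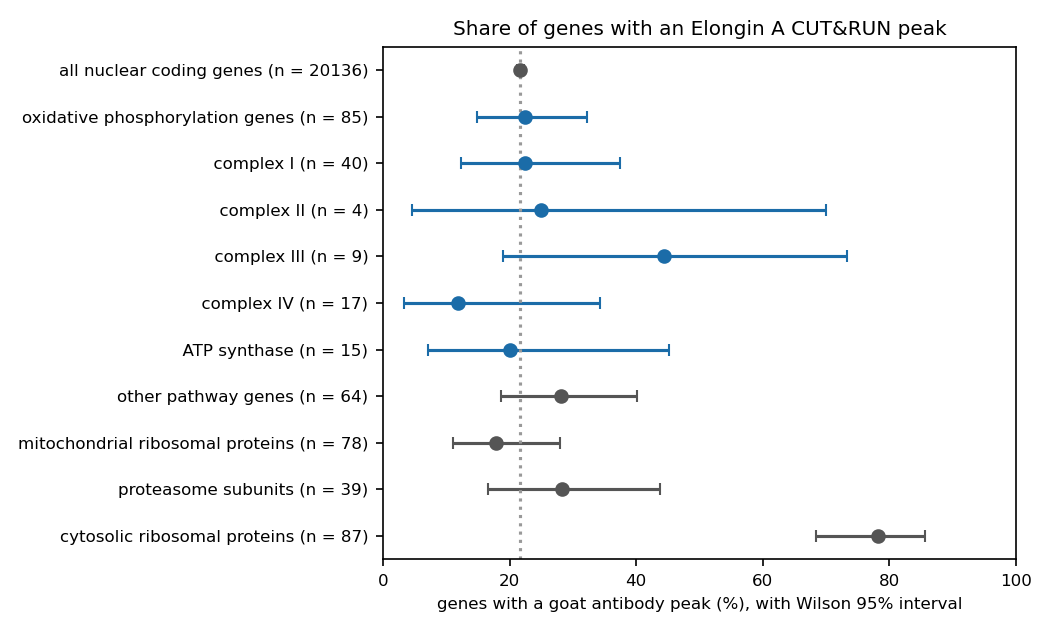
Share of genes with a goat antibody CUT&RUN peak in the gene or within 1 kb (x axis, percent), for the oxidative phosphorylation genes and each complex (blue) and for other gene groups and all nuclear coding genes (grey). Points are shares, bars are Wilson 95% intervals, and the dotted line is the share over all coding genes; the 85 genes sit at 22.4% beside 21.7%, and the cytosolic ribosomal protein genes at 78.2%.

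Beside other housekeeping groups, the shares were 14 of 78 mitochondrial ribosomal protein genes (17.9%, 11.0 to 27.9), 11 of 39 proteasome subunit genes (28.2%, 16.5 to 43.8) and 68 of 87 cytosolic ribosomal protein genes (78.2%, 68.4 to 85.5). The interval of the cytosolic ribosomal protein genes lies wholly above that of the oxidative phosphorylation genes. The mouse antibody share was 21.8% of the cytosolic ribosomal protein genes (14.5 to 31.6) and 4.71% of the oxidative phosphorylation genes (1.85 to 11.5), and these intervals do not overlap either. The mitochondrial ribosome and the proteasome had intervals that overlap that of the respiratory subunits.

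In complex I, which oxidises NADH, the strongest Elongin A peak was at NDUFB10, an accessory subunit of the membrane arm. Its goat antibody peak at chr16:2010559-2012281 was 1723 bp wide and had a fold enrichment of 14.8 with a −log10 q-value of 35.7, rank 16 of the 8720 peaks. The summit lay in an intron, 628 bp before the end of NDUFB10 and 1809 bp past its canonical start. The same peak reached into the far end of the cytosolic ribosomal protein gene RPS2, whose start lay 3284 bp from the summit, outside the peak, and the snoRNA gene SNORA10 was within 500 bp of the peak. The peak can therefore not be assigned to NDUFB10 rather than to its neighbour, and the mouse antibody had none there.

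NDUFB11, another membrane arm subunit encoded on the X chromosome, had the next strongest peak, with a fold enrichment of 9.16 (rank 120) at chrX:47004186-47004479. Its summit lay 241 bp upstream of the canonical start, and also 278 bp upstream of RBM10, an RNA-binding splicing regulator transcribed from the other strand. NDUFC1, a small accessory subunit, had a peak with a fold enrichment of 5.90 and its summit 112 bp downstream of the canonical start. That summit also lay inside NAA15, a subunit of the N-terminal acetyltransferase, 777 bp from its start. Both of these summits thus stood at the start or in the body of a second coding gene.

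NDUFA11, an accessory subunit of the membrane arm, was the complex I gene with peaks of both antibodies. A goat antibody peak with a fold enrichment of 3.32 and a mouse antibody peak with one of 3.26 overlapped, with summits 554 and 529 bp upstream of the canonical start. These summits also lay in the promoter windows of VMAC and of ENSG00000267314 and ENSG00000267740. A second goat antibody peak, with a fold enrichment of 5.61, lay 346 bp past the gene end and inside the coding gene ENSG00000267740. Within their own lists both promoter peaks were weak, at the 16.5th percentile of fold enrichment for the goat antibody and the 7.78th for the mouse antibody.

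Of the remaining complex I genes, NDUFA4L2, a paralogue of NDUFA4 known to be induced by hypoxia, had a fold enrichment of 4.49. Its summit lay 485 bp upstream of the canonical start, inside the annotated gene and in an intron of another of its transcripts. NDUFA5, an accessory subunit of the matrix arm, had one of 3.90 with the summit 288 bp upstream of the canonical start. Peaks far from a start were called at a further pair of genes. At NDUFA12, an accessory subunit of the matrix arm, the fold enrichment was 3.80 and the summit 49509 bp from the canonical start, and this peak was lost with the interval of the canonical transcript. At NDUFA8, an accessory subunit on the intermembrane side, it was 3.03 at 758 bp past the gene end.

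No peak in any list was called at 31 complex I genes. They were NDUFA1, NDUFA2, NDUFA3, NDUFA4, NDUFA6, NDUFA7, NDUFA9, NDUFA10, NDUFA13, NDUFAB1, NDUFB1, NDUFB2, NDUFB3, NDUFB4, NDUFB5, NDUFB6, NDUFB7, NDUFB8, NDUFB9, NDUFC2, NDUFC2-KCTD14, NDUFS1, NDUFS3, NDUFS4, NDUFS5, NDUFS6, NDUFS7, NDUFS8, NDUFV1, NDUFV2 and NDUFV3. They include NDUFV1, which binds NADH, and NDUFS1, which carries iron-sulphur clusters.

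**Figure D2:**
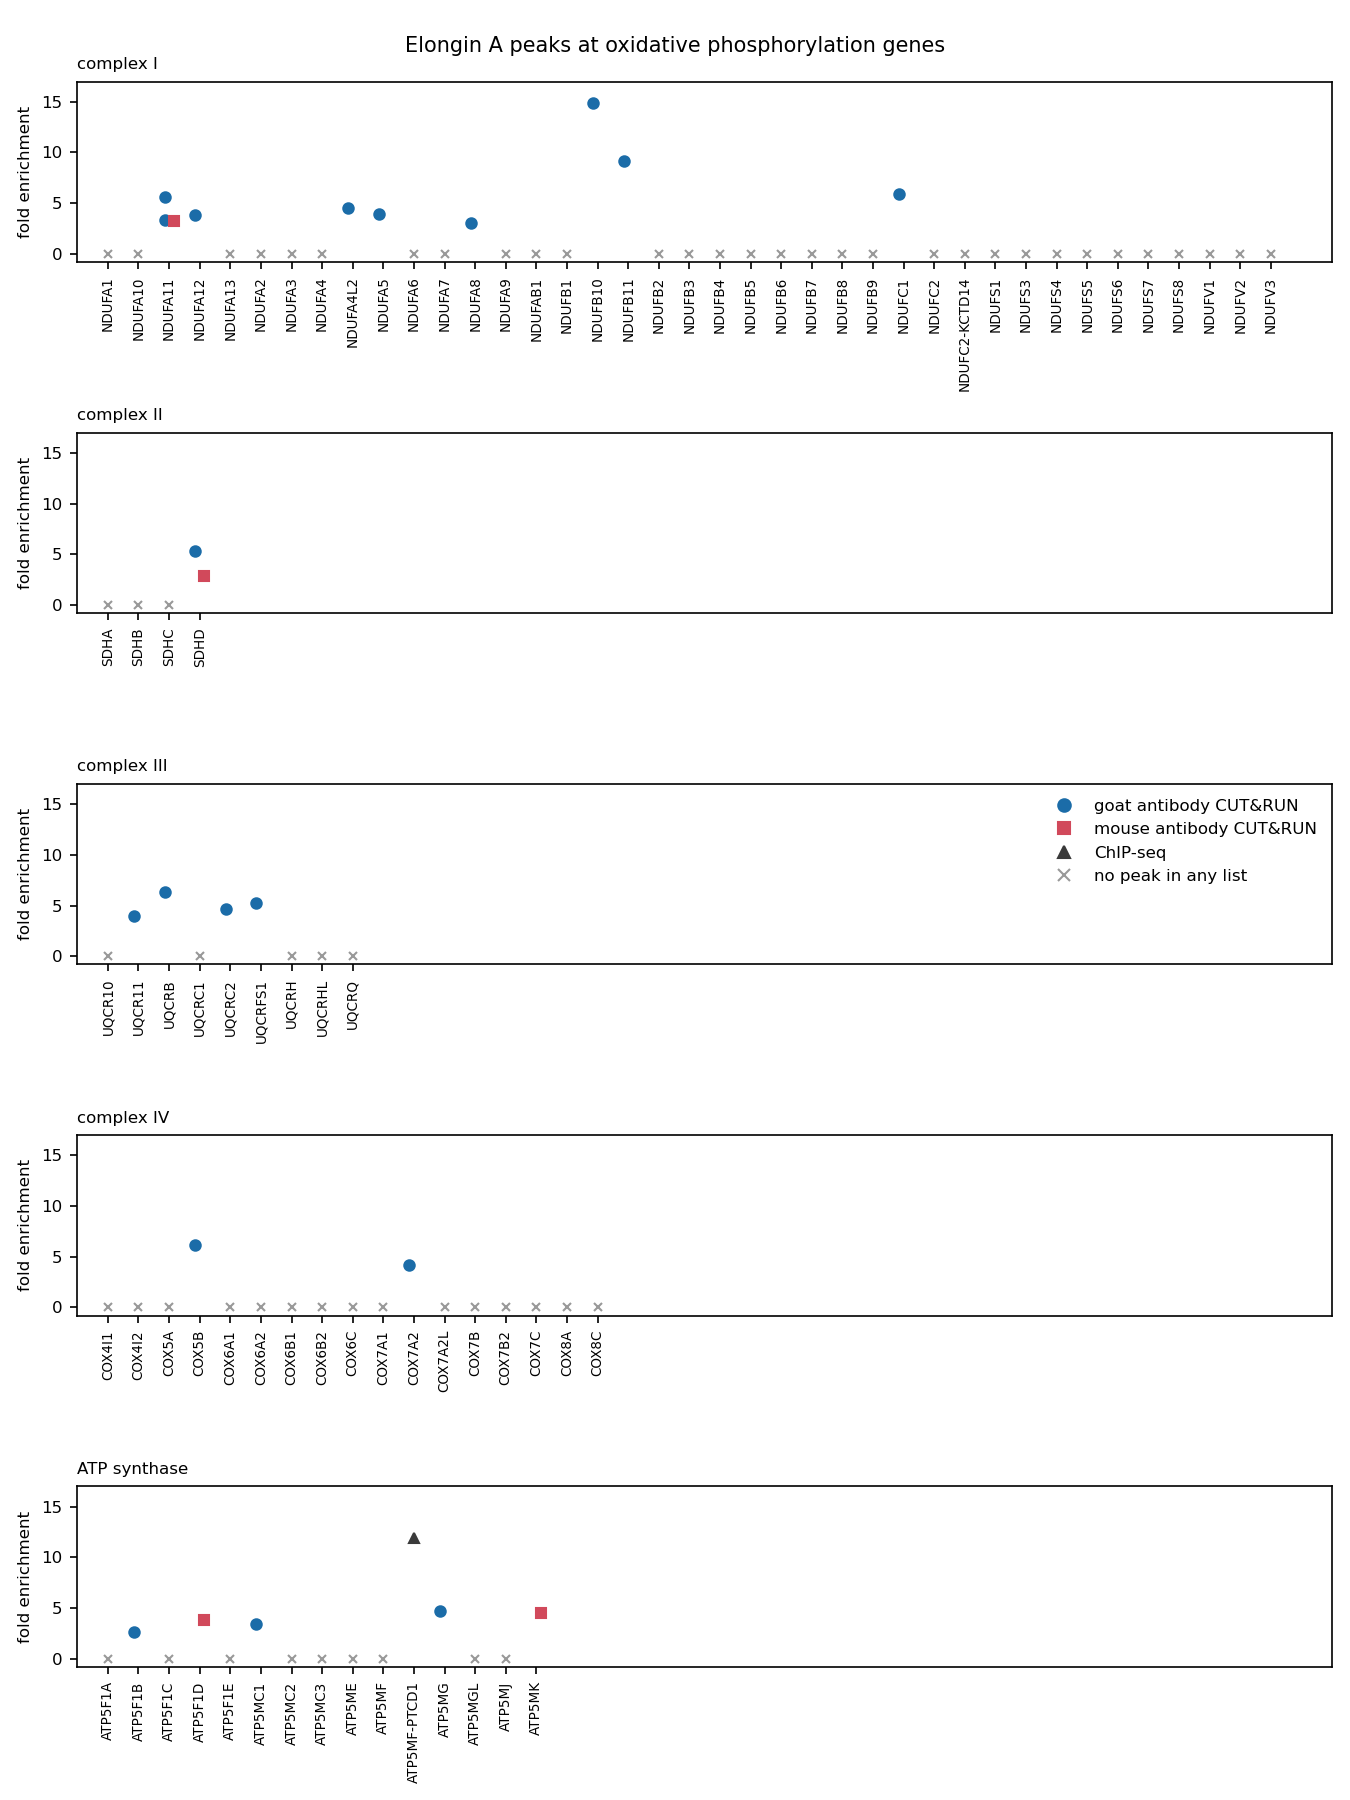
Fold enrichment over the control (y axis) of each Elongin A peak in or within 1 kb of 84 of the 85 genes, 1 panel per complex. Circles are goat antibody CUT&RUN peaks, squares mouse antibody CUT&RUN peaks and the triangle is the ChIP-seq peak; crosses at 0 mark genes with no peak in any list, and NDUFB10 at 14.8 stands highest.

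Complex II oxidises succinate and, unlike the other complexes, has no subunit encoded in mitochondrial DNA. SDHD, a membrane anchor subunit, had a goat antibody peak with a fold enrichment of 5.31 (−log10 q-value 10.5) and a mouse antibody peak with one of 2.85. The 2 peaks overlapped, and their summits lay 750 and 723 bp past the annotated end of the gene on chromosome 11, and 33892 and 33865 bp from the canonical start. The annotated gene reaches that far only through its longest transcripts: with the interval of the canonical transcript in place of the whole gene, SDHD had no peak of either antibody. The summits of both antibodies also lay inside the coding gene ENSG00000255292. SDHA, the flavoprotein, SDHB, the iron-sulphur subunit, and SDHC, the other membrane anchor, had no peak.

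In complex III, which hands electrons to cytochrome c, 4 goat antibody peaks were called and none of the mouse antibody or of ChIP-seq. UQCRB had the strongest, with a fold enrichment of 6.30 (−log10 q-value 12.3) and the summit 113 bp past the canonical start, in an intron. UQCRFS1, the Rieske iron-sulphur protein, had one of 5.26 with the summit in an intron 1055 bp past the start. At UQCRC2, a core protein, it was 4.66, and the summit lay 210 bp upstream of the canonical start. At UQCR11, a small subunit, it was 3.99, 312 bp upstream. All 4 summits fell within 1055 bp of the canonical start of the gene concerned, a limit taken from these same values and so a description. UQCR10, UQCRC1, UQCRH, UQCRHL and UQCRQ had no peak.

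In complex IV, cytochrome c oxidase, peaks were called at COX5B and COX7A2, both by the goat antibody. COX5B, a zinc-binding subunit on the matrix side, had a fold enrichment of 6.12 (−log10 q-value 9.61) with the summit in the promoter stretch shown above. No other coding gene lay within 1 kb of COX5B, and the nearest basic start of another gene, ACTR1B, was 18274 bp from the summit. COX7A2, the broadly expressed form of a membrane subunit, had a fold enrichment of 4.18. Its summit lay 475 bp upstream of the canonical start, in an intron of another transcript of the gene. COX4I1, COX4I2, COX5A, COX6A1, COX6A2, COX6B1, COX6B2, COX6C, COX7A1, COX7A2L, COX7B, COX7B2, COX7C, COX8A and COX8C had no peak.

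The ATP synthase genes had peaks in all 3 lists, at different genes. By the goat antibody, ATP5MG, a membrane subunit at the dimer interface, had a fold enrichment of 4.72 in an intron 23588 bp from the canonical start. That summit also lay inside the coding gene ENSG00000285827 and nearer to the start of KMT2A (11262 bp) than to any start of ATP5MG (19067 bp), and with the interval of the canonical transcript ATP5MG had no peak. ATP5MC1, for the c subunit of the rotor ring, had one of 3.46 with its summit 206 bp upstream of the canonical start. ATP5F1B, for the catalytic beta subunit, had one of 2.68, the lowest of the 20 goat antibody peaks, with the summit 1149 bp past the gene end and 647 bp upstream of BAZ2A, a chromatin remodelling subunit. By the mouse antibody, ATP5MK, a small membrane subunit, had a fold enrichment of 4.48 with the summit 554 bp upstream of the canonical start and inside PDCD11, and ATP5F1D, the delta subunit of the central stalk, one of 3.85 at 277 bp past the gene end. The ChIP-seq peak at ATP5MF-PTCD1 had a fold enrichment of 11.9 and rank 72 of 186. It lay 51 bp upstream of CPSF4, a factor of mRNA 3′ end formation, and in the promoter window of PTCD1, and was 27293 bp from the canonical start of the readthrough gene. It was counted because that gene spans these positions. ATP5F1A, ATP5F1C, ATP5F1E, ATP5MC2, ATP5MC3, ATP5ME, ATP5MF, ATP5MGL and ATP5MJ had no peak.

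Of 9 pairs of a broadly expressed subunit gene and its tissue-restricted or copied partner, 3 had a goat antibody peak and in each case at 1 partner. That is 3 of 18 genes (16.7%, 5.84 to 39.2), near the 21.7% of all coding genes, so the split within pairs is not a result about them. COX7A2 had a peak where COX7A1, the heart and muscle form, had none, and ATP5MG had the intron peak given above where ATP5MGL had none. NDUFA4L2 had a peak where the broadly expressed NDUFA4 had none. COX4I1 and COX4I2, COX6A1 and COX6A2, COX6B1 and COX6B2, COX7B and COX7B2, COX8A and COX8C, and UQCRH and UQCRHL had no goat antibody peak at either partner, and no pair had a mouse antibody peak.

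The fold enrichments were close to those at other genes. The strongest goat antibody peak per gene had a median fold enrichment of 4.66 over the 19 genes, with an interquartile range of 3.94 to 5.75, and the median was also 4.66 over the 4377 coding genes with a peak. A fold enrichment of at least 5 was reached at 8 of the 19 genes (42.1%) and at 40.1% of all coding genes with a peak. Of the 20 goat antibody peaks, 11 were above and 9 below the list's median. In its top 20% were 6, 2 of them in the top 10%, and 4 were in its bottom 20%. Of these 20 peaks 2 overlapped a mouse antibody peak (10%, 2.79 to 30.1), beside 8.16% of the goat antibody peaks at coding genes. In the other direction 2 of 4 mouse antibody peaks overlapped a goat antibody peak (50%, 15 to 85), beside 32.4% of the whole mouse antibody list.

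Near the start of a gene, most goat antibody summits stood upstream. Within 1 kb of a canonical start 12 were found, 9 of them upstream (75%, 46.8 to 91.1). The 9 upstream summits, at NDUFA11, NDUFA4L2, COX7A2, UQCR11, COX5B, NDUFA5, NDUFB11, UQCRC2 and ATP5MC1, all lay between 206 and 554 bp upstream. Over all coding genes, 1749 such summits were found, with 63.2% upstream. The interval of 46.8 to 91.1 includes that share, so the upstream share is not a result about the oxidative phosphorylation genes. Between 200 and 600 bp upstream lay 41.7% of the 1749 summits (39.4 to 44). The range from 200 to 600 bp was chosen after the values were seen, so the comparison is a description. Of the downstream summits, those at NDUFC1 and UQCRB lay 112 and 113 bp past the start.

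**Figure D3:**
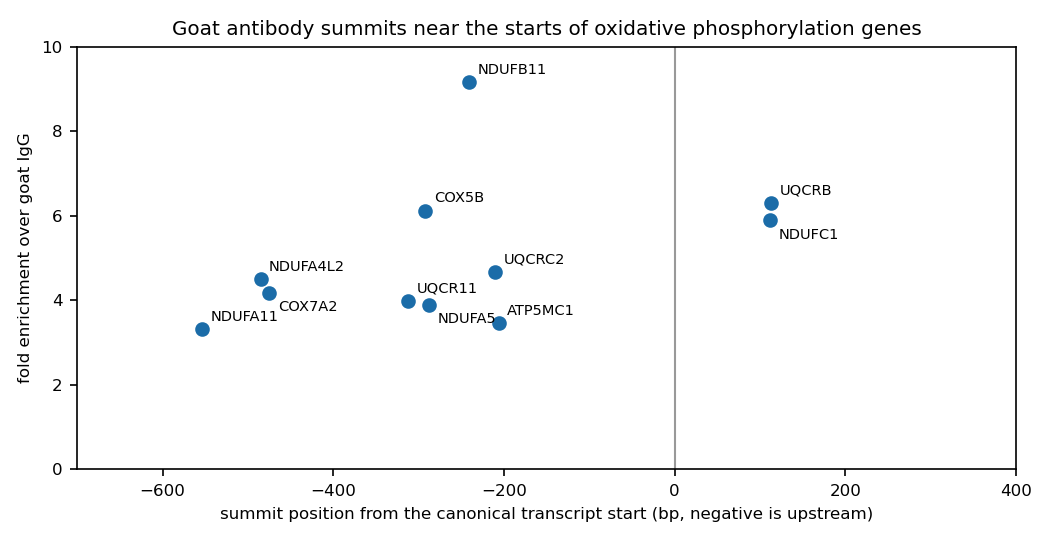
Goat antibody summits within 1 kb of the canonical transcript start of an oxidative phosphorylation gene (11 of the 12 summits), by position from the start in bp (x axis, negative is upstream) and fold enrichment over goat IgG (y axis). The 9 upstream summits lie between 206 and 554 bp upstream, and none lies in the 200 bp just before the canonical start, a range chosen after the values were seen. From the nearest annotated start, the UQCRC2 and ATP5MC1 summits lie 137 and 184 bp upstream.

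By position in the gene, 11 of the 20 goat antibody summits were in a promoter window of the gene concerned, 5 in the gene body and 4 past the gene end, by 346 to 1149 bp. None lay in a coding exon, 7 lay in introns, 2 in other exons and 11 outside its basic transcripts. Among all annotated starts of coding genes, the nearest was that of the oxidative phosphorylation gene for 17 of the 20 summits and that of another gene for 3, at ATP5F1B, ATP5MG and SDHD. With the starts of basic transcripts alone these were 15 and 5, the added 2 being both peaks of NDUFA11. In 8 cases the summit lay in the promoter window of the oxidative phosphorylation gene alone, in 3 in that of a second gene as well (NDUFA11, NDUFB11 and UQCR11), and in 1, at ATP5F1B, in that of another gene alone. These position counts were not made for the peaks at all coding genes. They describe the 20 peaks and are not a result about the oxidative phosphorylation genes. For all 25 peaks of the 3 lists the 32 bp around the summit occurred once in the genome. Several of these genes have processed pseudogenes, and a copy with any changed letter would not be counted here.

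These genes are short and crowded. Their median annotated length was 12.1 kb, beside 27.2 kb over all coding genes, and the window of 52 of 85 (61.2%) met another coding gene, beside 46.0% of all. The goat antibody share was 11 of 52 (21.2%, 12.2 to 34.0) for genes with such a neighbour and 8 of 33 (24.2%, 12.8 to 41.0) without, while over all coding genes it was 25.7% with and 18.4% without. By length the share was 4 of 17 genes of up to 5 kb (23.5%, 9.56 to 47.3), beside 10.1% of all coding genes of that length. It was 4 of 22 at 5 to 10 kb (18.2%, beside 15%), 5 of 20 at 10 to 20 kb (25%, beside 17.3%) and 6 of 26 above 20 kb (23.1%, beside 27.2%). In each class the interval of the oxidative phosphorylation genes includes the share over all coding genes. Genes with and without a goat antibody peak had median lengths of 12.6 and 11.8 kb.

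**Figure D4:**
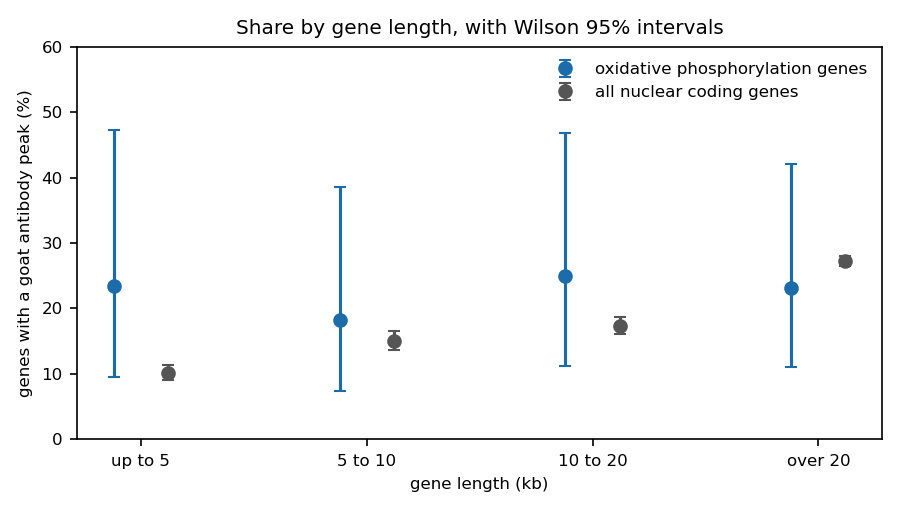
Share of genes with a goat antibody peak in the gene or within 1 kb (y axis, percent) by annotated gene length in kb (x axis), for the oxidative phosphorylation genes (blue) and all nuclear coding genes (grey), with Wilson 95% intervals. The share over all coding genes rises from 10.1% up to 5 kb to 27.2% over 20 kb, and the blue intervals include it in each class.

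The 66 genes without a goat antibody peak had a median distance of 75.7 kb to the nearest one. Of these genes 27 were more than 100 kb away, up to 3683 kb for COX7B. Within 5 kb there were 2: NDUFV2, a subunit of the NADH-oxidising tip, at 1.93 kb from a peak with a fold enrichment of 4.32, and NDUFS1 at 4.47 kb from a peak with one of 7.27. Peaks were counted at 20 genes with 2 kb either side in place of 1 kb, beside 22.7% of all coding genes. Distances to the nearest peak were not computed for coding genes at large. Those given here are a description and show no trait particular to these genes.

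The motifs known for these promoters were found at genes with and without a peak. In the 300 bp from 250 bp upstream to 50 bp downstream of the canonical start, 13 of 84 promoters (15.5%) held GCATGCGC, 11 (13.1%) CCGGAAGT and 9 (10.7%) AAGATGGCG, on either strand, and 28 (33.3%) held at least 1 of them. NDUFB6 has no canonical transcript in the annotation and was not scanned. The matches printed above for UQCRC2 and ATP5MC1 do not lie wholly in this window and were not counted. Over 19855 coding promoters the shares were 4.27%, 6.17%, 2.85% and 12.3%. Among genes with a goat antibody peak 6 of 19 promoters (31.6%) held a motif, and among those without one 22 of 65 (33.8%). Matches of GCATGCGC on opposite strands can overlap, and a promoter with both was counted once. A window without a match says nothing of the factor.

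Of 64 other genes of the pathway, mainly assembly factors and the remaining subunits, 18 had a goat antibody peak (28.1%, 18.6 to 40.1) and 4 a mouse antibody peak (6.25%, 2.46 to 15), against backgrounds of 21.7% and 7.80%. ChIP-seq peaks were called at 3 of them (4.69%, 1.61 to 12.9, against 0.785%): PET117 (fold enrichment 16.5), COX19 (15.6) and COX16 (11.4), all factors of complex IV assembly. This interval lies above the background, rests on 3 genes and 1 sample, and was not tested. Where these 3 peaks lie in the genes is not given here, so they cannot be assigned to these genes rather than to a neighbour. The strongest goat antibody peaks were at COX17, a copper chaperone for complex IV (fold enrichment 10.6), NDUFAF8 (7.27) and NDUFAF6 (6.34), which act in complex I assembly, COX18, an insertase for a complex IV subunit (5.99), and CYCS, cytochrome c itself (5.52). Of 11 regulators of the pathway, the goat antibody had peaks at 3 (27.3%, 9.75 to 56.6, against 21.7%): GABPB1, a subunit of GABP (4.34), PPRC1, a coactivator (4.11), and TFB1M, which modifies mitochondrial ribosomal RNA (3.07). The mouse antibody also had peaks at 3 (27.3%, 9.75 to 56.6, against 7.80%, an interval above the background that rests on 3 genes and was not tested): ESRRA, a nuclear receptor (6.26), and the coactivators PPARGC1B (4.49) and PPRC1 (4.44). NRF1, GABPA, YY1, PPARGC1A, TFAM and TFB2M had no peak in any list.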

How the data were processed

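Elongin A was mapped in wild-type DLD1 cells by CUT&RUN with a goat antibody (2 samples, 1 list), CUT&RUN with a mouse antibody (1 sample) and ChIP-seq (1 sample), each against its own control. According to the methods and the submitters' processing notes, reads were mapped with Bowtie2 on hg19 and peaks were called with MACS2 at default settings. In the lists as deposited, each peak has a fold enrichment, a ratio over the local control made by the authors' caller. The authors' caller also gave a −log10 q-value, and the score in the deposited lists, 10 times that value, was not used, nor was the p-value. The summit is given as an offset from the peak start. How the 2 goat antibody samples were combined is not given in the sources used here.

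Gene models were those of GENCODE (release 44, mapped to GRCh37), and sequences were read from GRCh37. Positions count from 1. A gene had a peak when its annotated interval with 1 kb either side overlapped the peak by at least 1 bp. Promoter summits lay from 1000 bp upstream to 100 bp downstream of any annotated start. Shares have Wilson intervals at 95%, which cover counting error over genes only; without read totals the depth is unknown. No test was made. Exon and intron classes, and the promoter windows of neighbouring genes, used the transcripts of the annotation's basic set.

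All 85 genes enter the counts, and the values of 1 complex I gene are not reported here. Given in full are the 12 genes with the strongest goat antibody peak, those with a mouse antibody or ChIP-seq peak, SDHA to SDHD and the isoform pairs; the others with a peak are given by fold enrichment and position. The genes and gene lists were chosen with earlier results of these data known. Of the cell type markers, PECAM1 was not matched in the annotation and is not analysed here. In simulated data all 200 peaks planted at gene windows were found, 0 of those planted 1 bp outside and 200 of 200 in promoters. Alternatives were stricter q-values (under 0.01 and 0.001), a fold enrichment of at least 5, the gene alone or 2 kb either side, summits in place of peaks, basic transcripts, other promoter windows and overlaps, and genes without neighbours or readthrough. The interval of the canonical transcript was added after seeing the data. The RNA-seq, 4sU-seq and RNA polymerase ChIP-seq samples were not analysed here. Python 3.11.15 with numpy 2.4.6, pandas 2.3.3, scipy 1.17.1, pysam 0.24.0 and matplotlib 3.10.9 was used.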

Additional observations from a re-analysis of the deposited data

How the results depend on the processing

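Of 61 alternative values, 42 stayed within 1.5 times or the spread of the value reported, 19 moved and 0 reversed. A fold enrichment of at least 5 gave 8 genes with a goat antibody peak, 3 with a promoter summit, 0 with a mouse antibody peak, 0 with both antibodies, 0 goat antibody peaks shared with the mouse antibody and a median fold enrichment of 6.01 (5.95 over all coding genes), which the threshold itself raises. At a q-value under 0.001, 1 gene had a mouse antibody peak, 1 had both antibodies and 1 goat antibody peak was shared. The gene interval alone gave 12, 2 and 1 genes for the goat antibody, the mouse antibody and both. The shares over all coding genes moved the same way: 8.71%, 2.92%, 2.36% and 0.631% for the goat antibody, promoter summits, the mouse antibody and both at a fold enrichment of at least 5, 4.23% and 2.53% for the mouse antibody and both at the stricter q-value, and 18.6%, 6.31% and 3.79% with the gene alone. The 33 genes whose window meets no other coding gene are a smaller set by construction. Of them 8 had a goat antibody peak, 1 a mouse antibody peak and 0 both, with 4 promoter summits (12.1%, 4.82 to 27.3) and 0 ChIP-seq peaks. Over all coding genes without such a neighbour the shares were 18.4%, 6.81% and 4.25%, with 6.52% for promoter summits and 0.542% for ChIP-seq. Without readthrough genes 0 had a ChIP-seq peak, and with the canonical interval 1 gene had both antibodies (4.1% of all coding genes). Over the alternatives the goat antibody count ran from 8 to 20.

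The depth is unknown, and the absence of a peak does not show the absence of Elongin A. With 1 list per experiment, no value has a replicate error. No paired analysis was possible because the result comes from no test and no list separates the samples. Peaks between close genes cannot be assigned to 1 of them.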
